A study of Mus musculus with 51 samples.

Results

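HMGN1 was overexpressed in MIN6 cells, and the RNA of 3 such samples was set against that of 3 samples with an empty vector. These 6 arrays, chosen by their labels, are 6 of the 51 Affymetrix mouse expression arrays of the series. MIN6 is a mouse insulinoma line, derived from pancreatic beta cells, that makes insulin. The groups were MIN6 cells with HMGN1 (OE, overexpression; n = 3), MIN6 cells with the HMGN3a construct (OE, n = 3), which served for a comparison of constructs, and MIN6 cells with the empty vector (n = 3). A second line, mouse embryonic fibroblasts (MEFs) transformed with SV40, a purchased line with no knockout named, with HMGN1 (n = 3) or its own empty vector (n = 3), served for a comparison of lines. All of these cells, controls included, had been infected with a retrovirus in 5 µg/ml polybrene, kept in 1 µg/ml puromycin for 7 days and grown for 24 hr without selection before RNA was taken. Infected cells were kept as pools and not as clones, and the submitters state that the amount of HMGN protein was about doubled. The labels give no promoter for the constructs, no species for the HMGN1 sequence and no word on whether the 3 samples of a group were separate infections, so the p-values below measure only the spread between these samples. Fewer cells of a type and less RNA per cell cannot be told apart in such pools.

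HMGN1 is a small nuclear protein that binds nucleosomes without preference for a DNA sequence, competes with linker histone for them and is known to loosen chromatin. HMGN3, of which HMGN3a is the long splice form, is the family member known for high levels in islets, where in mice it has been tied to glucose-stimulated insulin secretion. Beta cells of rodents take up glucose through GLUT2, the product of Slc2a2, and turn the rise in ATP into closure of a potassium channel, calcium entry and release of insulin granules.

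The cells carried the markers of their label. All 10 beta cell markers on the array, among them Ins2, Iapp, Pdx1 and G6pc2, lay above the level below which probe sets were treated as dim (log2 intensity 5.14), while 8 of 10 fibroblast markers and 4 of 8 leukocyte markers, Ptprc among them, lay below it in every group. Also below it in every group were 2 of 4 acinar, 1 of 4 ductal, 1 of 8 other islet cell and 0 of 8 neuron markers. The ductal marker Krt7 had a mean log2 level of 11.18, so not all markers of other cell types were dim. The summed intensity of the beta cell markers was 58810 to 61400 on HMGN1 arrays, against 60260 to 61940 on empty vector arrays. Markers of other islet cells summed to 18930 to 20100 on HMGN1 arrays, against 17600 to 17890 on empty vector arrays, so these ranges did not overlap. Such a sum of linear intensities weighs the brightest members most, here Ttr (mean log2 level 13.55) and Gcg (11.59). Of the 7 other islet cell markers above the dim level limma called 0 (2 at an unadjusted p below 0.05). The part of other islet cells in the results was not tested. Neuron markers summed to 14980 to 15870 on HMGN1 arrays, against 14400 to 15010 on empty vector arrays, and those ranges overlapped.

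The array medians were even, at 55.5 to 57.6 units of intensity over the 9 MIN6 arrays. The first principal component (69.8% of the variance) set the HMGN3a arrays apart from the other 6. On the second (13.1%) the HMGN1 arrays scored -9.03, -3.76 and -9.01 and the empty vector arrays 18.9, 2.97 and 1.12, so that empty vector replicate 1 stood apart. The mean log2 intensity of BioB and BioC, bacterial transcripts added to the hybridization, was 6.85, 7.91 and 6.73 on the HMGN1 arrays, against 9.55, 8.64 and 7.45 on the empty vector arrays. These control levels moved with the comparison, and their part in it was not tested beyond a fit that carried them as a covariate.

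**Figure D1:**
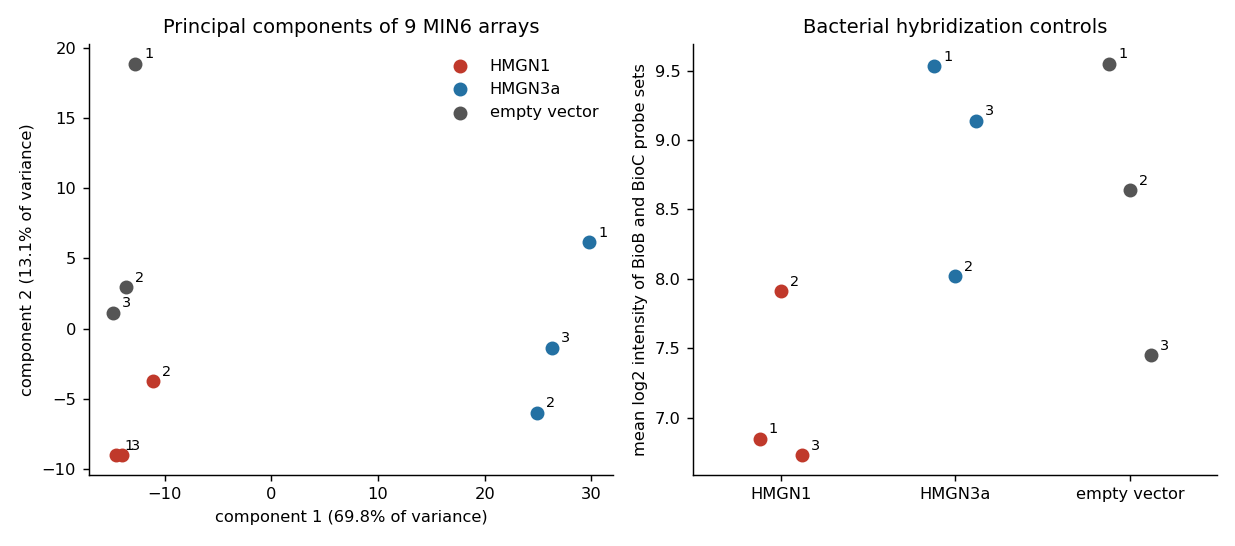
Left, the first and second principal component of the 9 MIN6 arrays over all genes tested, numbers being replicates. Right, the mean log2 intensity of the BioB and BioC control probe sets on each array; the HMGN1 arrays reach at most 7.91 and empty vector replicate 1 lies at 9.55.

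The RNA of Hmgn1 itself did not rise on these arrays. The brightest of its 4 probe sets read 12.50, 12.51 and 12.51 log2 units with HMGN1, against 12.54, 12.56 and 12.51 with the empty vector. The log2 difference was -0.03 ± 0.06 (SE, n = 3 each; limma over all probe sets, adjusted p = 0.858), and its 95% interval ran from 0.897-fold to 1.06-fold. The other probe sets differed by -0.01, -0.02 and -0.05. In SV40 MEFs the same brightest probe set differed by -0.01 between HMGN1 and its empty vector. The sources do not say whether the construct holds the bases these probe sets read. The overexpression therefore rests on the label and on the submitters' statement about protein. Both Hmgn3 probe sets, by contrast, were higher in the HMGN3a pool, by 0.26 ± 0.07 and 0.23 ± 0.06 (limma over all probe sets, adjusted p = 0.0272 and 0.0286). With HMGN1 these Hmgn3 probe sets differed from the empty vector by -0.07 and 0.05, and Hmgn5 by 0.28 ± 0.14 (adjusted p = 0.492).

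In MIN6 cells 153 genes differed between the HMGN1 and the empty vector arrays. Of 13169 genes tested, these (1.16%) were called at an adjusted p below 0.05, 66 higher (0.501%) and 87 lower (0.661%) than with the empty vector. The majority turned after a second quantile normalization, with 85 higher and 78 lower. It also turned without HMGN1 replicate 1 (20 higher and 19 lower), 2 (30 and 21) or 3 (26 and 24). Without empty vector replicate 1 it turned as well (39 and 38), but not without replicate 2 (32 and 38) or 3 (45 and 46). A change of at least 1.5-fold was reached by 19 of the genes that rose and 22 of those that fell. The median difference over all genes was -0.0144, and 2246 genes had an unadjusted p below 0.05. The HMGN1 and empty vector arrays did not overlap for 3249 genes (24.7%), with HMGN1 higher for 8.22% of the genes tested and lower for 16.5%. Leaving out any 1 of the 6 arrays left 39 to 91 called genes, namely 39, 51 and 50 without HMGN1 replicates 1, 2 and 3, and 77, 70 and 91 without empty vector replicates 1, 2 and 3. With the BioB and BioC level as a covariate, an alternative added after seeing the data, 34 genes were called, 30 of them among the 153. Of the 50 called genes named under the rule of choice, 20 kept their call under all 14 alternatives, and below the highest adjusted p over the alternatives is given for a gene that did not.

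**Figure D2:**
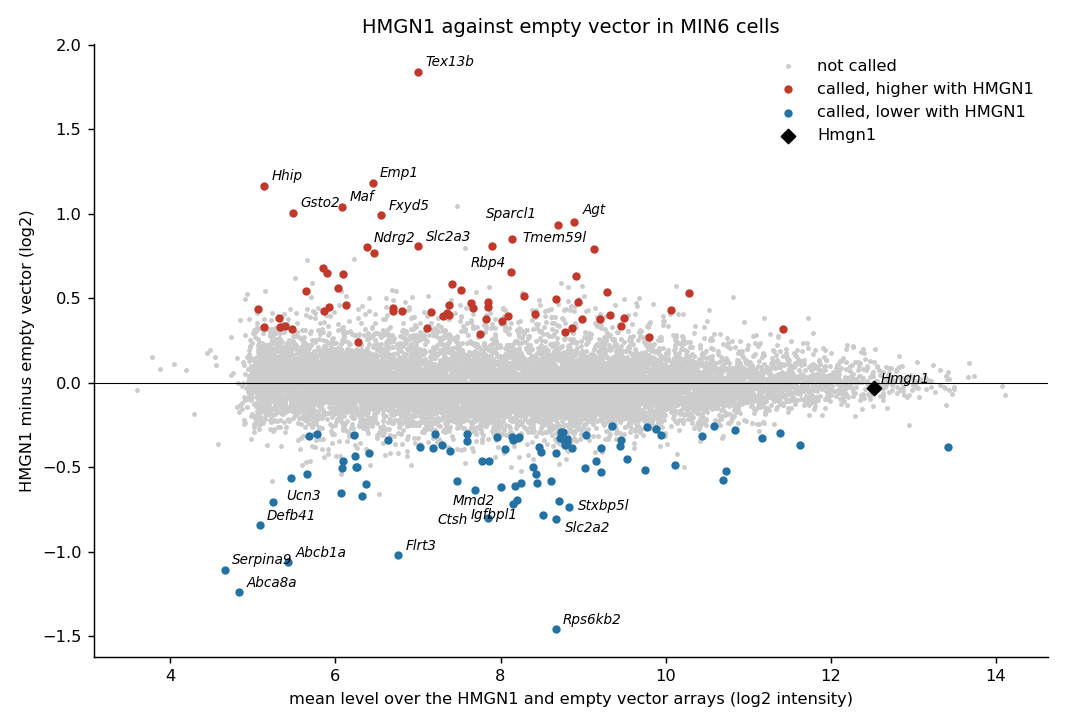
Each point is a gene, with its mean log2 intensity over the HMGN1 and empty vector arrays across and the log2 difference, HMGN1 minus empty vector, up. Red genes (66) were called higher and blue genes (87) lower; Tex13b at 1.84 and Rps6kb2 at -1.46 lie farthest out, and Hmgn1 lies at -0.03.

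Among beta cell genes, those for GLUT2 and urocortin 3 fell. Slc2a2, which encodes GLUT2, read 8.33, 8.27 and 8.22 with HMGN1, against 9.14, 9.01 and 9.08 with the empty vector. The 3 HMGN1 arrays all lay below the 3 empty vector arrays, and the fall was 1.75-fold (log2 -0.81 ± 0.10, adjusted p = 0.00477). It kept its call without any 1 of the 6 arrays and missed it with the bacterial controls as a covariate (-0.69, adjusted p = 0.0553). Ucn3, urocortin 3, a peptide that marks mature beta cells in mice, read 5.68, 5.79 and 5.74 with HMGN1, against 6.41, 6.38 and 6.38 with the empty vector. Again no array overlapped, with a fall of 1.57-fold (log2 -0.65 ± 0.11, adjusted p = 0.0209), but the call was lost when any 1 of the 6 arrays was left out and with the covariate (highest adjusted p 0.18).

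The upstream sequences of these 2 genes are shown because they are the called members of the beta cell marker list. They are RefSeq's (build GRCm38.p6), from 250 bases before to 50 after the annotated start, read in the direction of the gene. Capitals mark the 4-base core TAAT and its reverse complement ATTA, the core that homeodomain proteins such as Pdx1 and Nkx6-1 are known to bind. The Slc2a2 window (chr3:28697653-28697952, plus strand) holds 1 core and the Ucn3 window (chr13:3945300-3945599, minus strand) holds 5, where cores may overlap each other. At least 1 core stands in 58% of all 32851 windows of this length, so a match is a description and no site.
Slc2a2: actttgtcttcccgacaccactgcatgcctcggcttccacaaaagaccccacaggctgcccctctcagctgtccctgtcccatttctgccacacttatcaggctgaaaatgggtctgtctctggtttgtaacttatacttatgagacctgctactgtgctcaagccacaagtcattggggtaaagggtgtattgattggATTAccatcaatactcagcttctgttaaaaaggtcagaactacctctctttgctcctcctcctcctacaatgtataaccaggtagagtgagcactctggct
Ucn3: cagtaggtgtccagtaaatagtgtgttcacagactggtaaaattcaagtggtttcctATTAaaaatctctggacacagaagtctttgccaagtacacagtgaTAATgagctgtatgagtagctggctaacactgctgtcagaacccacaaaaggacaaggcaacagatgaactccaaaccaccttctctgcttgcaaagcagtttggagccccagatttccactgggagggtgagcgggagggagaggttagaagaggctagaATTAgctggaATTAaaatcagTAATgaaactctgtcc

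In the list of 18 tested genes of glucose sensing and insulin secretion coupling, Slc2a2 and Ucn3 were called lower and 0 were called higher, while 10 had an unadjusted p below 0.05. The median difference was -0.133, beside -0.0144 over all genes. In 9 of the 18 the HMGN1 arrays lay wholly below the empty vector arrays and in 0 wholly above, where 16.5% and 8.22% of all genes tested did so. Without empty vector replicate 1, 1 member of the list was called lower. Slc2a2 was also the 1 called member among 11 tested genes tied to HMGN proteins in earlier studies. Glp1r, the receptor for the incretin GLP-1, read 10.32, 10.13 and 10.35 with HMGN1, against 10.56, 10.46 and 10.60 with the empty vector (log2 -0.27 ± 0.08, adjusted p = 0.14). Kcnj11, the pore of the ATP-sensitive potassium channel, read 8.95, 9.05 and 8.97 with HMGN1, against 9.35, 9.19 and 9.17 with the empty vector (-0.25 ± 0.08, adjusted p = 0.173). Both genes had HMGN1 arrays below all empty vector arrays. Not all of the 9 members with HMGN1 wholly below are named here. Of the other genes named, Abcc8, Slc30a8 and G6pc2 had overlapping arrays. Abcc8, the regulatory subunit of the same channel, differed by 0.00 ± 0.05, and Slc30a8, the zinc carrier of the insulin granule, by 0.01 ± 0.05. G6pc2, the islet glucose-6-phosphatase, differed by 0.01 ± 0.05. The calcium channel subunits Cacna1d and Cacna1c differed by -0.33 ± 0.09 and -0.24 ± 0.09 (adjusted p = 0.11 and 0.219).

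Hormones, beta cell transcription factors and granule proteins gave no call. Among 8 tested islet hormone genes 0 were called in limma (2 at an unadjusted p below 0.05). Ins2, insulin 2, read 14.06, 14.16 and 14.01 with HMGN1, against 14.20, 14.16 and 14.08 with the empty vector, so the groups overlapped (-0.07 ± 0.06, adjusted p = 0.553). Iapp, amylin, which like Ins2 lies at the top of the intensity scale, differed by -0.02 ± 0.05. Gcg, glucagon, read 12, 11.93 and 11.89 with HMGN1, against 11.66, 11.65 and 11.61 with the empty vector, without overlap and just short of a call (0.30 ± 0.06, adjusted p = 0.0583). Of 14 beta cell transcription factors 0 were called (1 at an unadjusted p below 0.05), with a median of 0.0029. Pdx1, the factor that drives insulin transcription, differed by 0.00 ± 0.06 and Isl1 by 0.01 ± 0.06. Nkx6-1 read 9.94, 9.70 and 9.89 with HMGN1, against 10.47, 9.97 and 9.98 with the empty vector, where replicate 1 was highest (-0.30 ± 0.13, adjusted p = 0.27). Of 23 granule and exocytosis genes 0 were called (4 at an unadjusted p below 0.05) and the median was -0.0304.

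Slc2a3, Pdk1 and Txnip, genes of glucose uptake and use, rose. Slc2a3, which encodes GLUT3, the high-affinity glucose transporter of neurons, read 7.35, 7.39 and 7.48 with HMGN1, against 6.69, 6.51 and 6.59 with the empty vector. No array overlapped, and the rise was 1.75-fold (log2 0.81 ± 0.09, adjusted p = 0.00246), kept under all 14 alternatives. Pdk1, the kinase that shuts off pyruvate dehydrogenase, read 9.69, 9.59 and 9.41 with HMGN1, against 9.14, 8.97 and 8.95 with the empty vector (0.54 ± 0.09, adjusted p = 0.0232). Its groups did not overlap, but the call was lost without HMGN1 replicate 1 or 2, without empty vector replicate 2 or 3 and with the covariate (highest adjusted p 0.123). Txnip, the thioredoxin-binding protein induced by glucose, was higher by 0.40 ± 0.08 (adjusted p = 0.0499) and kept its call under 3 of 14 alternatives (highest adjusted p 0.275), being lost without each HMGN1 array and without empty vector replicate 1 or 2. It was the 1 called gene among 20 of oxidative stress. Of 27 glycolysis and hypoxia genes Pdk1 was the 1 called. Their median was 0.111, 9 had an unadjusted p below 0.05, and the arrays did not overlap for 6, all of them higher with HMGN1, where the arrays did not overlap for 24.7% of all genes tested and lay apart with HMGN1 higher for 8.22%. Among these 6, Hk1, hexokinase 1, differed by 0.30 ± 0.07 (adjusted p = 0.081) and Tpi1, triosephosphate isomerase, by 0.16 ± 0.05 (adjusted p = 0.178). In oxidative phosphorylation 0 of 29 genes were called (1 at an unadjusted p below 0.05), and the median was -0.00149. The HMGN1 arrays lay wholly below the empty vector arrays for 7 of the 29 and wholly above for 0. Of all genes tested, 16.5% and 8.22% did so.

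Among transcription factors, Maf rose and Dmrt3, Mycn and Myc fell. Maf, c-Maf, a basic leucine zipper factor that in mouse islets is known from glucagon-producing alpha cells, read 6.67, 6.40 and 6.74 with HMGN1, against 5.61, 5.48 and 5.58 with the empty vector. The rise was 2.06-fold (log2 1.04 ± 0.08, adjusted p = 0.000377), was free of overlap and was kept under all 14 alternatives. It was the 1 called gene among 13 tested of the list of genes disallowed in mature beta cells or marking immature ones. Of 2 other Maf probe sets above the dim level in some group, 1 went the other way, with -0.20 ± 0.12 over all probe sets (adjusted p = 0.582). Dmrt3, a DM domain factor known from spinal cord neurons, read 7.37 on all 3 HMGN1 arrays, against 8.11, 7.98 and 7.92 with the empty vector (-0.64 ± 0.08, adjusted p = 0.00523, highest adjusted p 0.0553 with the covariate). Mycn, the N-Myc factor, read 13.21, 13.20 and 13.28 with HMGN1, against 13.62, 13.63 and 13.58 with the empty vector. That is a fall of 1.3-fold (-0.38 ± 0.05, adjusted p = 0.00564, highest 0.0506 with the covariate), near the top of the scale, and 1 of 2 other probe sets of the gene differed by 0.09 ± 0.07. Myc read 5.45, 5.59 and 5.52 with HMGN1, against 5.86, 5.83 and 5.81 with the empty vector. It was called lower (-0.32 ± 0.06, adjusted p = 0.0308) but kept that call under 3 of 14 alternatives and lost it without each of the 6 arrays (highest adjusted p 0.182). Mycn and Myc were the 2 called among 21 tested genes of the list of early cell cycle control.

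Genes of the secreted proteins Agt, Sparcl1 and Rbp4 and of the surface proteins Hhip and Ffar4 rose. Hhip, a membrane protein that binds hedgehog ligands, read 5.73, 5.57 and 5.87 with HMGN1, against 4.44, 4.62 and 4.61 with the empty vector. The empty vector mean lay below the dim level, so the rise is given as at least 1.5-fold (log2 1.17 ± 0.08 in the fit, adjusted p = 0.000288), and it was called under all 14 alternatives. Agt, angiotensinogen, the precursor of angiotensin, read 9.44, 9.42 and 9.23 with HMGN1, against 8.41, 8.49 and 8.33 with the empty vector, an increase free of overlap (0.95 ± 0.10, adjusted p = 0.00238). Sparcl1, a matrix glycoprotein, read 9.24, 9.05 and 9.21 with HMGN1, against 8.07, 8.33 and 8.28 with the empty vector. Its rise of 1.91-fold (0.94 ± 0.10, adjusted p = 0.00246), like that of Agt, was kept under all 14 alternatives. Rbp4, the carrier of retinol in blood, read 8.40, 8.29 and 8.22 with HMGN1, against 7.52, 7.52 and 7.43 with the empty vector (0.81 ± 0.10, adjusted p = 0.00477, highest 0.0546 with the covariate). Ffar4, a receptor for long-chain fatty acids, was higher by 0.64 ± 0.11 (adjusted p = 0.0297). It lost the call in 5 of the 6 fits without 1 array, all but that without empty vector replicate 1 (highest adjusted p 0.141).

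Adhesion genes went both ways among those named. Flrt3, a leucine-rich repeat protein of axon guidance and adhesion, read 6.42, 6.06 and 6.27 with HMGN1, against 7.53, 7.11 and 7.17 with the empty vector. All HMGN1 arrays were lower, and the fall was 2.03-fold (log2 -1.02 ± 0.12, adjusted p = 0.00356), kept under all 14 alternatives. The cadherins Cdh6 (-0.61 ± 0.09, adjusted p = 0.00891) and Cdh7 (-0.60 ± 0.09, adjusted p = 0.0143) fell as well, and so did Slitrk1, a synaptic adhesion protein (-0.69 ± 0.09, adjusted p = 0.00523). Cdh6 and Slitrk1 kept their calls under all 14 alternatives, while that of Cdh7 was lost without HMGN1 replicate 1 or 2 and without empty vector replicate 2 or 3 (highest adjusted p 0.079). Cd200, an immune-inhibitory surface protein, fell at least 1.37-fold, its HMGN1 mean being below the dim level (-0.70 ± 0.08 in the fit, adjusted p = 0.00356). Against these, Clstn2, a synaptic calsyntenin, rose by 0.63 ± 0.12 (adjusted p = 0.0351), a call that remained without empty vector replicate 3 and was lost without each of the other 5 arrays (highest adjusted p 0.174).

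Of 26 neuronal and synaptic genes, Th and Mapt were called lower and 0 higher, and the list median was 0.0757. Of the 26, 10 had an unadjusted p below 0.05 in limma, beside 2246 of all 13169. The HMGN1 arrays lay wholly above the empty vector arrays for 6 members and wholly below for 4. The shares of all genes tested were 8.22% and 16.5%. Th, tyrosine hydroxylase, the first enzyme of catecholamine synthesis, read 9.52, 9.46 and 9.49 with HMGN1, against 10.06, 9.93 and 10.03 with the empty vector (-0.52 ± 0.10, adjusted p = 0.0351). That call was lost without each of the 6 arrays (highest adjusted p 0.195). Mapt, the microtubule protein tau, read 10.27, 10.27 and 10.30 with HMGN1, against 10.60, 10.61 and 10.59 with the empty vector, a small difference with almost no spread (-0.32 ± 0.05, adjusted p = 0.013). It held without empty vector replicate 1 or 3 and was lost without each of the other 4 arrays (highest adjusted p 0.0912). In the list of epithelial junctions and keratins, with 19 tested genes, Cldn7, a tight junction claudin, fell (-0.50 ± 0.09, adjusted p = 0.0308, highest 0.143) and Krt18, a simple-epithelium keratin, rose (0.29 ± 0.05, adjusted p = 0.0351, highest 0.163). The call of Cldn7 was lost without each of the 6 arrays and that of Krt18 without each but empty vector replicate 1.

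The fall with the smallest p was that of Rps6kb2. This gene, which encodes S6 kinase 2 of the mTOR pathway, read 8.01, 7.83 and 7.98 with HMGN1, against 9.37, 9.36 and 9.46 with the empty vector. The groups lay far apart relative to their spread, with a fall of 2.75-fold (log2 -1.46 ± 0.07, adjusted p = 9.65e-06) that was called under all 14 alternatives. Abcb1a, a drug efflux pump of the P-glycoprotein family, read 5.03, 4.65 and 5.01 with HMGN1, against 6.25, 5.87 and 5.75 with the empty vector. With its HMGN1 mean below the dim level it fell at least 1.77-fold (adjusted p = 0.00849, highest 0.0805 with the covariate). Serpina9 and Defb41 also ended below that level, so their falls are at least 1.05-fold and at least 1.29-fold (adjusted p = 0.000303 and 0.00467). Abca8a read 4.23, 4.17 and 4.25 with HMGN1, against 5.25, 4.95 and 6.16 with the empty vector, where replicate 3 was highest. Its fall, at least 1.25-fold (adjusted p = 0.0351), lost the call without empty vector replicate 1 and without each HMGN1 array (highest adjusted p 0.139). Ctsh, the lysosomal protease cathepsin H, fell by 0.80 on the log2 scale (SE 0.12, adjusted p = 0.013), a call lost without HMGN1 replicate 2 or 3 or empty vector replicate 2 (highest adjusted p 0.123).

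The largest rise was that of Tex13b, an X-linked gene known for expression in testis. It read 7.97, 7.79 and 7.99 with HMGN1, against 5.91, 5.95 and 6.37 with the empty vector, a rise of 3.58-fold (log2 1.84 ± 0.14, adjusted p = 0.000377) kept under all 14 alternatives. Mageb16, another X-linked gene and a member of the MAGE family, read 6.95, 6.63 and 6.99 with HMGN1, against 5.95, 6.11 and 6.19 with the empty vector (0.77 ± 0.10, adjusted p = 0.00523, highest 0.0561 with the covariate). Both genes were free of overlap. Emp1, a tetraspan membrane protein of epithelia, read 7.07, 6.95 and 7.10 with HMGN1, against 5.38, 5.98 and 6.22 with the empty vector, where replicate 1 was lowest. It rose 2.27-fold (1.18 ± 0.19, adjusted p = 0.0177) but lost the call without each HMGN1 array (highest adjusted p 0.0992), and its other probe set differed by 0.00. Fxyd5, a regulator of the sodium pump, rose 1.99-fold (0.99 ± 0.12, adjusted p = 0.00372) and Gsto2, a glutathione transferase, at least 1.8-fold (adjusted p = 0.00294). Ndrg2, a gene induced during differentiation, rose by 0.80 ± 0.07 (adjusted p = 0.00102), Gng3, a G protein gamma subunit of neurons, by 0.79 ± 0.09 (adjusted p = 0.00356) and Tmem59l, a brain-enriched membrane protein, by 0.85 ± 0.07 (adjusted p = 0.000377). These 5 genes were called under all 14 alternatives.

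Adtrp and Rcn3, a calcium-binding protein of the secretory pathway, rose by 0.68 ± 0.07 and 0.58 ± 0.07 (adjusted p = 0.00246 and 0.00523) and kept their calls under all 14 alternatives. The remaining large changes did not. Klhl4 (0.66 ± 0.11) and Krtap17-1 (0.65 ± 0.12) rose with calls that were lost without each HMGN1 array and without empty vector replicate 2, for Klhl4 also without replicate 1 (highest adjusted p 0.145 and 0.235). Igfbpl1 (-0.78 ± 0.13), Stxbp5l (-0.73 ± 0.14), Mmd2 (-0.72 ± 0.14), Ptpn21 (-0.70 ± 0.14) and Dnah7a (-0.67 ± 0.10) fell, and each lost its call without any 1 of the HMGN1 arrays (highest adjusted p 0.109, 0.245, 0.263, 0.288 and 0.124). The same was true of Mmd2 without any empty vector array, of Igfbpl1 without empty vector replicate 1 or 2, of Stxbp5l without 1 or 3 and of Ptpn21 without 2 or 3. Ttyh2 fell by 0.61 on the log2 scale (SE 0.09), a call lost without HMGN1 replicate 1 or 3 (highest adjusted p 0.0986). Another probe set of Ttyh2 differed by 0.06 and 1 of 2 others of Stxbp5l by 0.09. In limma over all probe sets, the other one of Igfbpl1 was called lower (-0.85 ± 0.09, adjusted p = 0.00275). Of 2 others of Mmd2, 1 was called lower (-0.59 ± 0.07, adjusted p = 0.00602) and 1 was not (-0.16 ± 0.14, adjusted p = 0.693).

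**Figure D3:**
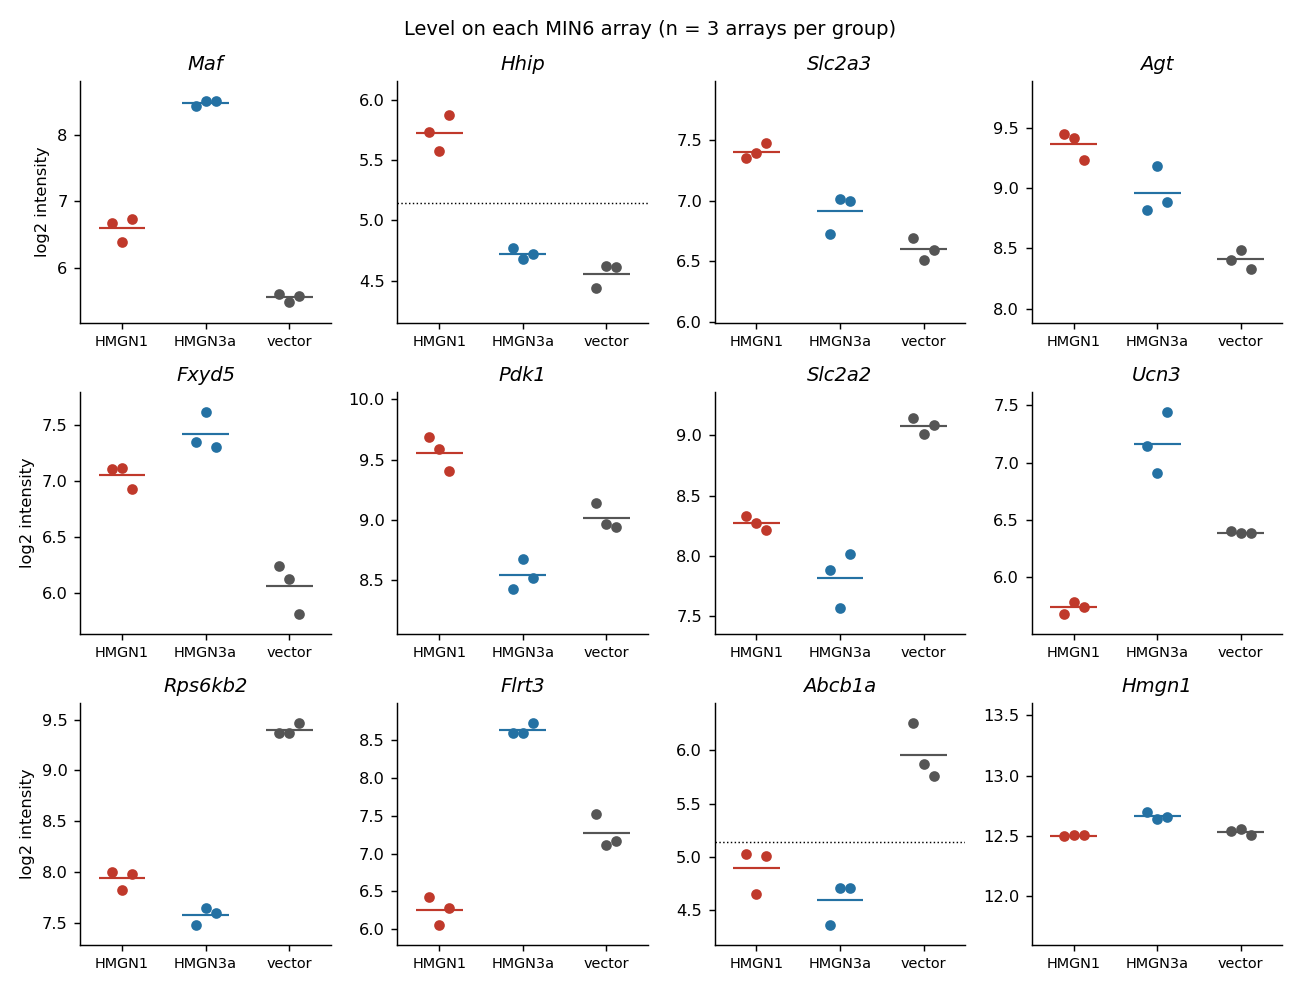
Log2 intensity of 12 genes on each MIN6 array, one point per array in replicate order, with a line at the group mean and a dotted line at the dim level of 5.14 where it falls in the panel. The HMGN1 and empty vector points do not overlap in any panel, as for 24.7% of all genes tested. The genes other than Hmgn1 were chosen among those called, so this describes the choice. For Hmgn1 the nearest arrays read 12.507 (HMGN1) and 12.509 (empty vector), and the group means differ by -0.03.

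The lists of DNA replication, mitosis, the unfolded protein response and cholesterol synthesis held 0 called genes. Of 30 DNA replication genes 0 were called in limma (6 at an unadjusted p below 0.05), with a median of -0.0551, but in 10 of them the HMGN1 arrays lay wholly below the empty vector arrays and in 0 wholly above. Pola2, the second subunit of DNA polymerase alpha, read 8.97, 9.02 and 9.06 with HMGN1, against 9.48, 9.24 and 9.27 with the empty vector (-0.31 ± 0.08, adjusted p = 0.0904). Mitosis genes gave a median of -0.0383 and 0 of 27 calls (3 at an unadjusted p below 0.05), with 7 wholly below and 0 wholly above. Mki67, the proliferation antigen Ki-67, differed by -0.09 ± 0.06 (adjusted p = 0.419). The unfolded protein response list of 24 genes gave 0 calls (1 unadjusted) and a median of -0.0311, and the 20 cholesterol synthesis genes 0 calls (1 unadjusted) and a median of -0.0497, with 7 wholly below and 1 wholly above. The shares of genes wholly below and above among all genes tested were those given above, 16.5% and 8.22%. Single calls came from the lists of amino acid response (Slc7a3, an arginine transporter, 0.38 ± 0.07) and extracellular matrix (Timp2, a metalloproteinase inhibitor, 0.27 ± 0.05), and these were kept under 3 and 2 of 14 alternatives (highest adjusted p 0.221 and 0.175) and lost without each of the 6 arrays. Of all 34 lists, 11 had a called member and 23 had none.

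HMGN3a arrays, set beside the same empty vector arrays, differed for more genes. The number called was 4486 (34.1%). HMGN1 arrays differed from HMGN3a arrays for 4470 genes (33.9%), 2328 of them higher with HMGN1 and 2142 lower. After a second quantile normalization the majority turned, with 2278 higher and 2502 lower, and so did that of HMGN3a against the empty vector, with 2455 higher and 2298 lower in place of 1917 and 2569. Since both constructs share their 3 controls, their differences from the empty vector are given side by side and the test is the direct one. Of the 153 genes called with HMGN1, 119 differed directly between the constructs. In 65 of these the HMGN1 mean lay beyond both the HMGN3a and the empty vector mean. The 153 genes were picked by their HMGN1 values, and the direct test uses the same HMGN1 arrays. Both counts are therefore descriptions, and the share of all genes beyond both means was not computed.

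Several of the genes named above belong to these 65. Hhip read 5.73, 5.57 and 5.87 with HMGN1, 4.77, 4.68 and 4.72 with HMGN3a and 4.44, 4.62 and 4.61 with the empty vector (HMGN1 minus HMGN3a 1.00 ± 0.08, adjusted p = 1.07e-05). Only the HMGN1 arrays rose above the dim level. Sparcl1 differed from the empty vector by 0.94 with HMGN1 and -0.01 with HMGN3a (direct difference 0.94 ± 0.10, adjusted p = 5.9e-05). Rbp4 differed from the empty vector by 0.81 with HMGN1 and -1.10 with HMGN3a, so the constructs lay 1.92 ± 0.10 apart. Mageb16 differed by 0.77 with HMGN1 and -2.27 with HMGN3a, Pdk1 by 0.54 and -0.48, Slc2a3 by 0.81 and 0.32 and Agt by 0.95 and 0.55. Mageb16 was below the dim level with HMGN3a. In the other direction Flrt3 differed by -1.02 with HMGN1 and 1.37 with HMGN3a (direct -2.39 ± 0.12, adjusted p = 3.22e-07). Ucn3 read 5.68, 5.79 and 5.74 with HMGN1, 7.14, 6.91 and 7.44 with HMGN3a and 6.41, 6.38 and 6.38 with the empty vector, so the 3 groups were fully separate. Cldn7 (-0.50 and 2.03), Igfbpl1 (-0.78 and 0.47) and Myc (-0.32 and 0.29) had the same pair of signs.

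Other genes lay between the empty vector and HMGN3a. Slc2a2 read 8.33, 8.27 and 8.22 with HMGN1, 7.88, 7.57 and 8.01 with HMGN3a and 9.14, 9.01 and 9.08 with the empty vector, and HMGN1 was higher than HMGN3a by 0.45 ± 0.10 (adjusted p = 0.00571). Maf read 8.43, 8.50 and 8.50 with HMGN3a, so the HMGN1 mean was lower by 1.88 ± 0.08. Tex13b differed from the empty vector by 1.84 with HMGN1 and 3.76 with HMGN3a, Gng3 by 0.79 and 2.23, Tmem59l by 0.85 and 2.44, Dmrt3 by -0.64 and -3.15 and Rps6kb2 by -1.46 and -1.82. Dmrt3 was below the dim level with HMGN3a, so that its difference is a fitted value and no fold. The direct difference was called for Tex13b, Gng3, Tmem59l, Dmrt3 and Rps6kb2 (adjusted p at most 0.00228). It was not called for Abca8a (0.22 ± 0.23), Serpina9 (0.17 ± 0.08), Abcb1a (0.30 ± 0.15), Klhl4 (-0.31 ± 0.11), Stxbp5l (0.28 ± 0.14), Ptpn21 (0.22 ± 0.14) or Ttyh2 (0.04 ± 0.09). For Abca8a, Serpina9 and Abcb1a the means of both constructs lay below the dim level, so the direct test cannot show whether the constructs were alike there.

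**Figure D4:**
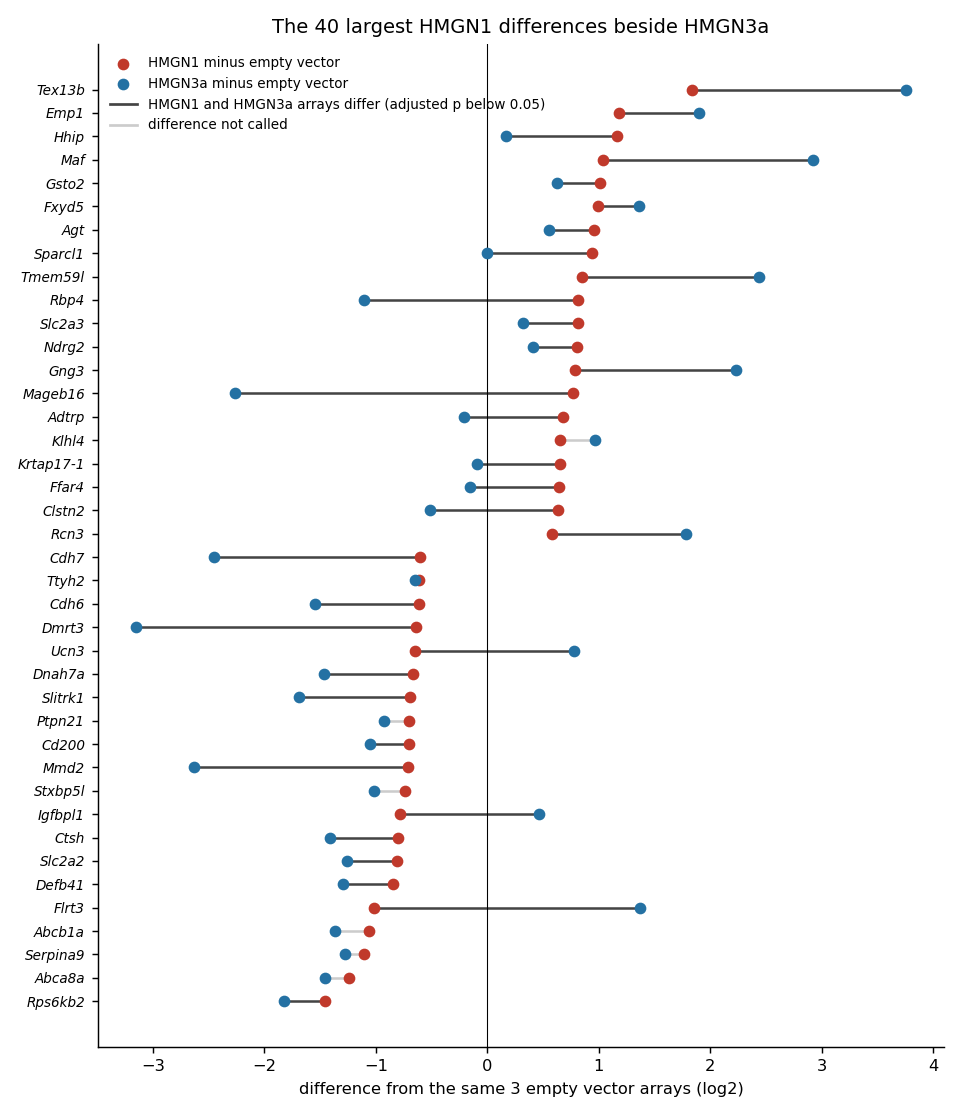
The 20 largest rises and 20 largest falls with HMGN1, each with its log2 difference from the empty vector for HMGN1 (red) and HMGN3a (blue), both against the same 3 arrays. A dark line marks genes whose constructs differed in the direct test; Flrt3 and Ucn3 were lower with HMGN1 and higher with HMGN3a, and Rbp4 and Mageb16 the reverse.

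The largest direct differences were mostly changes with HMGN3a. Sst, somatostatin, read 10.80, 10.95 and 10.79 with HMGN1, 5.75, 5.99 and 5.66 with HMGN3a and 10.86, 10.87 and 10.77 with the empty vector, so HMGN1 overlapped the empty vector while lying 5.05 ± 0.09 above HMGN3a. Nrn1, Stmn2 and Slc17a6, genes of neurite growth and of vesicular glutamate transport, were higher with HMGN1 than with HMGN3a by 5.04, 4.30 and 3.97, and differed from the empty vector by 0.12, 0.15 and 0.02. Dcaf12l1, Tmem178, Aard, Hs6st2, Slc1a2 and Vegfc were higher than with HMGN3a by 3.67, 3.50, 3.46, 3.33, 3.28 and 3.05, and none of the 6 was called against the empty vector in limma. After Cldn7 and Flrt3, the most negative direct differences were those of Scn10a (-2.42), Calml4 (-2.37), Lrpprc (-2.32), Gstm2 (-2.18), Magea5 (-2.16), Grem1 (-2.04), Ap1m2 (-1.97) and Smim22 (-1.97). Scn10a and Magea5 were below the dim level with HMGN1, and the 9 genes listed after Sst were below it with HMGN3a, so their differences are fitted values and no folds. For the last 8 genes the HMGN1 difference from the empty vector ran from -0.28 in Ap1m2 to 0.43 in Gstm2, with no call.

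Glycolysis and hypoxia genes differed between the constructs. Of 27 such genes 19 differed directly, and the median difference from the empty vector was 0.111 with HMGN1 and -0.191 with HMGN3a, of which 14 members were called lower and 1 higher. Ldha, lactate dehydrogenase A, differed from the empty vector by 0.11 with HMGN1 and -0.70 with HMGN3a (direct 0.81 ± 0.07, adjusted p = 1.13e-05). Hk1 differed directly by 0.66 ± 0.07 (adjusted p = 5.55e-05) and Tpi1 by 0.35 ± 0.05 (adjusted p = 0.000655). The share of all genes that differed directly was 33.9%, as given above.

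HMGN1 was also introduced into SV40 MEFs. Of the genes tested in MIN6 cells, 11990 were also above the dim level of the fibroblasts (log2 3.63). Among these, 3587 (29.9%) were called between HMGN1 and empty vector in SV40 MEFs. The effect of HMGN1, HMGN1 minus empty vector within a line, differed between the lines for 2847 genes (21.6%), and was more positive in MIN6 cells for 35.6% of them. That split depends on the scaling, with 49.1% after a second quantile normalization and 25.5% after centring each array on its median. The lines share no array, and levels were compared within a line only.

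Of the 153 genes called in MIN6 cells, 103 were above the fibroblasts' dim level, and 31 of these (30.1%) were called in SV40 MEFs too, near the 29.9% of all genes. They made up 0.864% of the fibroblast calls. In 12 of the 31 the direction was the same and in 19 it was opposite. Among the 12, Flrt3 differed by -1.02 in MIN6 cells and -0.37 in SV40 MEFs, Igfbpl1 by -0.78 and -0.50, Myc by -0.32 and -0.32, Pdk1 by 0.54 and 1.54 and Txnip by 0.40 and 1.71. Among the 19, Maf differed by 1.04 in MIN6 cells and -1.15 in SV40 MEFs, a difference between effects of 2.19 ± 0.16 (adjusted p = 1.42e-11). Slc2a3 differed by 0.81 in MIN6 cells and -0.52 in SV40 MEFs, Rcn3 by 0.58 and -0.74, Gng3 by 0.79 and -0.32 and Mycn by -0.38 and 0.49. For each of these 5 the difference between effects was called. The Slc2a3 mean of SV40 MEFs with HMGN1 (3.42) was below the fibroblasts' dim level, so its difference there is a fitted value and no fold. Tex13b was below the dim level in SV40 MEFs (difference there 0.00), and so was Slc2a2 (-0.36).

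The lines differed in interferon-stimulated genes. Of 26 tested in MIN6 cells 0 were called in limma (3 at an unadjusted p below 0.05), with a median of 0.0422 and differences from -0.24 to 0.18. In SV40 MEFs 24 of the 25 above the dim level were higher with HMGN1, with a median of 2.76, and the effect differed between the lines for 24. Usp18, which removes the ubiquitin-like protein ISG15, read 9.08, 8.96 and 9.18 with HMGN1 in MIN6 cells, against 9.08, 9.13 and 9.34 with the empty vector. Those arrays overlapped (-0.11 ± 0.09), while in SV40 MEFs Usp18 rose by 5.70, so the effects lay -5.80 ± 0.23 apart (adjusted p = 7.97e-17). Irf7, a factor that amplifies the interferon response and whose empty vector mean was below the dim level in MIN6 cells, differed by 0.04 there and 4.66 in SV40 MEFs, and Oas1a, an enzyme that senses double-stranded RNA, by 0.13 and 4.63. In class I antigen presentation 0 of 13 genes were called in MIN6 cells (1 unadjusted, median 0.056) and 13 of 13 were higher in SV40 MEFs (median 0.988).

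Cholesterol synthesis and cell cycle genes differed between the lines too. Cholesterol synthesis had 0 of 20 genes called in MIN6 cells and 19 higher in SV40 MEFs (median 0.856), and 18 differed between the lines. Mitosis genes had 0 of 27 called in MIN6 cells and 22 higher in SV40 MEFs, and 22 differed. DNA replication had 0 of 30 called in MIN6 cells and 14 higher in SV40 MEFs, and 15 differed. These counts stand beside the 21.6% of all genes whose effect differed.

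**Figure D5:**
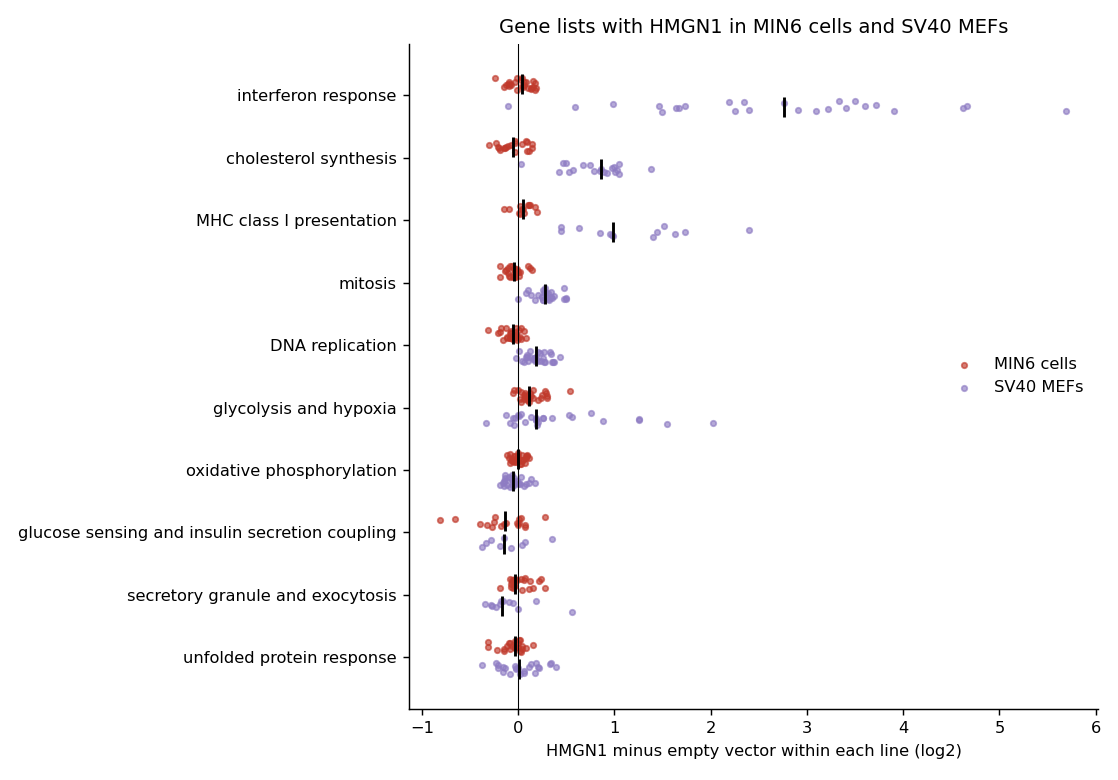
Log2 difference of HMGN1 minus empty vector for each tested member of 10 gene lists, in MIN6 cells (red) and in SV40 MEFs (violet, members above the fibroblasts' dim level), with a black bar at each median. The interferon list has a median of 0.0422 in MIN6 cells and 2.76 in SV40 MEFs.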

How the data were processed

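The authors deposited linear intensity values for every probe set in a single table. RMA is named in the submitters' processing notes, with neither version nor settings. The genome build is not given in the sources used here. All 51 value columns were mapped (0 left out), and the intensities were turned into log2 values without further scaling. There were 45101 probe sets, of which 64 were controls. A single symbol stood on 34945 of them, more than one on 932, and 9160 had no symbol. Symbols were updated through Entrez IDs with RefSeq's gene table.

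A probe set was left out where none of its MIN6 group means reached log2 5.14, the 40th percentile of those means, and the brightest remaining one stood for each of 13169 genes. That level also served as the floor for changes given as "at least". The 9 MIN6 arrays were fitted together in limma 3.58.1 (R 4.3.3), with 1 mean per group and no covariate. The 24 SV40 arrays gave the fibroblast effect, and a fit of all 33 the difference between effects. P-values are two-sided and adjusted by the Benjamini-Hochberg method over all genes tested. The fits were tested on simulated data. With 3 arrays per group the number of arrays limits the precision.

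The rule named the Hmgn genes, the 20 largest rises and falls among called genes without overlap, up to 8 called and 4 bright uncalled members of a list, and 10 genes at each end of the other contrasts. The members and the 34 gene lists were chosen with earlier results of these data known. The alternatives were no filter, every probe set, quantile normalization, median centring, a trend in the variance, a replicate block, the compared groups alone, each array left out and, added after seeing the data, the bacterial controls as a covariate and the list counts without empty vector replicate 1. Upstream sequences were read with Python 3.11.15 and pandas 2.3.3, and figures drawn with matplotlib 3.10.9.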

Additional observations from a re-analysis of the deposited data

Results flagged for a closer look

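Each result here was picked out because the effect of HMGN1 differed between MIN6 cells and SV40 MEFs in a test of the difference itself (limma, fit of 33 arrays). That held for 2847 genes (21.6% of those tested), and for 105 of the 153 genes called in MIN6 cells. The 153 were picked by MIN6 values that also enter this test, and 50 of them were not above the fibroblasts' dim level. The count of 105 is therefore a description.

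The genes at both ends are given as the effect in MIN6 cells minus the effect in SV40 MEFs. The most positive were Tubb2b, a brain tubulin (2.66), Maf (2.19), Armcx2 (1.88), Tex13b (1.84), Tagln, a smooth muscle actin-binding protein (1.83), Armcx3 (1.77), Vat1 (1.69), the small heat shock protein Hspb1 (1.69), Grb10 (1.59) and Gnai1 (1.57). Within MIN6 cells, Maf and Tex13b of these were called. Tubb2b read 6.62, 6.46 and 6.68 with HMGN1, against 5.51, 5.99 and 6.06 with the empty vector (0.73 ± 0.15, adjusted p = 0.0577), and differed by -1.93 in SV40 MEFs. The other 7 differed by between -1.92 (Tagln) and -1.31 (Gnai1) in SV40 MEFs.

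The most negative were Usp18 (-5.80), Irgm2 (-4.64), Irf7 (-4.62), Oas1a (-4.50), Igtp (-3.79), Oas2 (-3.72), Bst2 (-3.64), Lgals3bp (-3.59), Oasl2 (-3.45) and Rtp4 (-3.43). Irgm2 and Lgals3bp aside, these belong to the interferon list. In MIN6 cells their differences ran from -0.24 in Bst2 to 0.19 in Irgm2, and none was called in limma. The empty vector means of Irgm2, Irf7 and Oasl2 were below the dim level in MIN6 cells.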

How the results depend on the processing

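No result changed direction past the threshold in any alternative run. The 153 genes called with HMGN1 against the empty vector became 34 with the bacterial controls as a covariate (18 higher and 16 lower) and 39 to 91 with 1 array left out. Without the filter 109 were called, with every probe set 114, after quantile normalization 163, after median centring 133, with a variance trend 227 and in a fit of the compared groups alone 111. The 4470 genes called between HMGN1 and HMGN3a became 7129 over every probe set, where more features are tested, and 2685 with the covariate, the cause of which was not tested. HMGN3a against the empty vector gave 6968 over every probe set beside 4486. The difference between lines stayed at 2310 to 2716 genes with 1 array left out. The replicate numbers share no stated origin, and the main fit did not pair the samples by them. Same-numbered HMGN1 and empty vector arrays deviated from their group means with correlations of -0.18, 0.093 and 0.38. With means of only 3 arrays, these values cannot settle whether the numbers pair the samples. With the replicate block 119 genes were called with HMGN1 (105 of them among the 153), 4364 between the constructs, 2695 between the lines and 4382 with HMGN3a. Of the 50 called genes named, 26 kept their call without any 1 array and 28 lost it with the covariate. Without empty vector replicate 1 (added later), the called lower members of the glucose-sensing and neuronal lists were 1 each. The 3 arrays per group and the signal over background limit what can be seen among dim genes, and replicates of unknown origin limit what the p-values cover.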

Other observations

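Some further genes among the 153, named after their values were seen, belong to islet and membrane biology. Scgn, secretagogin, a calcium sensor of islet cells, read 9.81, 9.79 and 10.00 with HMGN1, against 10.40, 10.28 and 10.38 with the empty vector (-0.49 ± 0.07, adjusted p = 0.013), and differed by 0.29 with HMGN3a. Kcnk16 and Kcnk1, potassium channels of the tandem-pore family, rose. Kcnk16, known from islets, read 8.10, 8.02 and 8.15 with HMGN1, against 7.64, 7.53 and 7.65 with the empty vector (0.48 ± 0.06, adjusted p = 0.00467). Kcnk1 read 10.57, 10.49 and 10.58 with HMGN1, against 9.98, 10.08 and 9.99 with the empty vector (0.53 ± 0.07, adjusted p = 0.00564). Neither had overlapping arrays.

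Secreted and metabolic proteins were among them too. Stc1, the glycoprotein hormone stanniocalcin 1, read 8.56, 8.72 and 8.35 with HMGN1, against 8.03 on all 3 empty vector arrays (0.52 ± 0.08, adjusted p = 0.0177). Lpl, lipoprotein lipase, rose by 0.43 ± 0.07 (adjusted p = 0.0187). Stc1 differed by -0.37 with HMGN3a. Selenop, the selenium carrier, read 10.45, 10.37 and 10.58 with HMGN1, against 10.95, 10.91 and 11.10 with the empty vector (-0.52 ± 0.07, adjusted p = 0.00849), and was higher by 0.92 with HMGN3a. Smarcb1, a core subunit of the SWI/SNF chromatin remodeller, read 9.66, 9.65 and 9.62 with HMGN1, against 9.96, 9.88 and 9.88 with the empty vector (-0.26 ± 0.05, adjusted p = 0.0351). The other alternatives were not tabulated for these single genes.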
